A study of Mus musculus with 11 samples.

Results

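GABAergic amacrine cells of the mouse retina at postnatal day 10 (P10) were followed in single-cell RNA counts from 11 mice. The cells were selected on measured values. A cell was taken when it held more than 300 genes, at least 2 UMIs of Gad1 and Gad2 together, no UMI of Slc6a9, at most 1 detected gene of the starburst set (Chat, Slc18a3, Slc5a7, Slc10a4, Fezf1) and at most 1 of a second set (Ebf3, Ppp1r17, Nhlh2, Prdm13, Crabp1, Lgr5). A UMI is a molecular tag that stands for 1 captured RNA molecule. The rule took 1011 of 20033 cells with more than 300 genes. Gad1 and Gad2 encode the enzymes that make GABA, and Slc6a9 encodes the glycine transporter of glycinergic amacrine cells.

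All mice were C57BL/6J, of both sexes, and their retinas were dissociated with papain and captured in droplets with inDrop. Control pups (n = 3) received PBS vehicle. Phase I ROP pups (n = 3) are a model of the early phase of retinopathy of prematurity with high blood glucose. They received streptozotocin (STZ), a toxin of insulin-producing cells, by intraperitoneal injection in the days after birth. The study describes them as littermates of the controls, and also kept STZ litters smaller than litters without STZ. The pups of the ω-3 diet (n = 2) and the ω-6 diet (n = 3) also received STZ. No diet group without STZ was compared. Their nursing dams were given a defined feed enriched in ω-3 or ω-6 long-chain polyunsaturated fatty acids. The study describes these pups as littermates, too. Since the feed was given to nursing dams, diet and dam cannot be told apart. The rule took 70 to 84 cells from each control mouse, 89 to 112 from each Phase I ROP mouse, 96 and 109 from the ω-3 mice and 56 to 118 from the ω-6 mice.

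Amacrine cells are interneurons of the inner retina. They receive glutamate from bipolar cells and feed inhibition back to bipolar terminals and forward to ganglion cells and other amacrine cells. Most release either GABA or glycine, and the GABAergic cells, many of which spread processes over wide fields, often release a neuropeptide as well. At P10, shortly before eye opening, their synapses are still forming.

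UMIs were summed per mouse over these cells, giving sums of 300841 to 636853 UMIs with a median of 2834 to 6589 UMIs per cell in a mouse. Levels of single genes are given as CPM, that is the UMIs of a gene relative to all UMIs of the sum after TMM scaling. In the table as a whole, 1157 of 18872 barcodes occurred in more than 1 library, and 116 of the 1011 cells carried such a barcode, but only 3 barcodes were carried by GABAergic cells of 2 libraries. Libraries of the 3 controls differed from those of all 8 STZ mice. In the GABAergic cells, a list of 13 noncoding RNAs, many nuclear or structured and with the mitochondrial ribosomal RNAs among them, summed to 40410 to 47227 CPM in controls and to 8438 to 14765 CPM in all other mice. In each comparison of Phase I ROP with control, the treatment and whatever else set the control libraries apart cannot be told apart.

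The label was checked against markers that the rule did not use. The cells were compared with 406 glycinergic amacrine cells, taken by at least 2 UMIs of Slc6a9, no Gad UMI and the same limits on the other genes, and with 9796 rods taken by at least 2 UMIs of a rod gene and no Gad UMI. Median depth was 4045 UMIs in GABAergic cells, 3570 in glycinergic cells and 1208 in rods. Slc32a1, which loads GABA and glycine into vesicles, was found in 62.5% of the GABAergic cells, 35.5% of the glycinergic cells and 0.847% of the rods. Pax6, a transcription factor of amacrine cells, was found in 77.7%, 51.7% and 3.88%, and Tfap2b, another, in 66.6%, 58.4% and 1.73%. The markers of the label were chosen with earlier results of these data known, so they do not test the label. They behaved likewise, with Tfap2a in 54.0%, 27.3% and 6.07%, C1ql1 in 48.7%, 1.48% and 0.276%, and Cartpt in 11.5%, 0.985% and 0.378%. Every one of these markers was found in a larger share of the GABAergic cells than of the rods. The rods were much shallower, so these shares alone cannot tell cell type from depth. With cells thinned to equal depth, C1ql1 was found in 30.4% of GABAergic cells and 0.106% of rods, and Cartpt in 8.64% and 0.173%. Against the glycinergic cells, which were closer in depth, C1ql1 and Cartpt differed widely and Tfap2b little. These differences in shares were not tested. Pdc, a phosducin of rods found in 96.2% of the rods, was found in 19.8% of the GABAergic cells and 41.9% of the glycinergic cells, so both sets carried rod RNA. Of 7 genes listed for horizontal cells, Lhx1 and Onecut1 had no UMI in the GABAergic cells, while Slc4a3 was in 23.9%, Calb1 in 12.7%, Onecut2 in 9.99% and Ndrg1 in 9.30%. Of 16 genes of endothelium, glia and blood only Cdh5 had none, and the endothelial genes Kdr and Pecam1 were in 13.6% and 12.5%. The list of endothelium, glia and blood summed to 82.7 to 114 CPM in control and 161 to 226 CPM in Phase I ROP, and its part in the results was not tested.

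**Figure D1:**
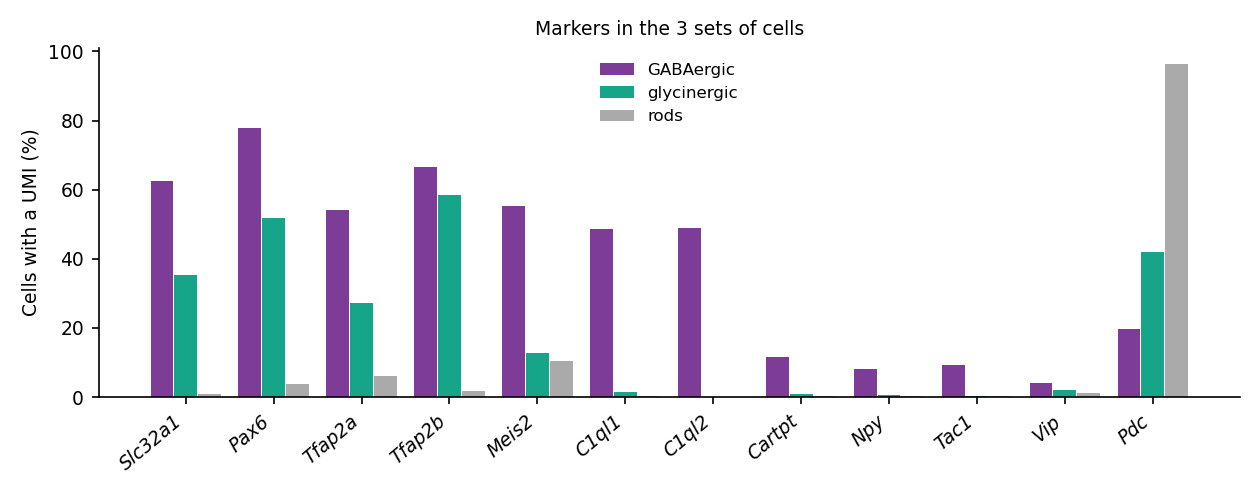
Share of cells with at least 1 UMI of each gene (vertical axis, percent) in GABAergic amacrine cells, glycinergic amacrine cells and rods, pooled over all mice. Pax6 reaches 77.7% in GABAergic cells, C1ql1 48.7% and Cartpt 11.5%, and the rod gene Pdc is at 19.8%.

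The Gad threshold divided a continuous range. Cells with exactly 2 Gad UMIs, just inside, numbered 153, those with 3 or more numbered 858, and 370 cells that met every other condition had only 1. Slc32a1 was found in 14.9% of the cells just outside, 36.6% just inside and 67.1% with 3 or more Gad UMIs, and Pax6 in 33.0%, 56.9% and 81.5%. Median depth was 2250.5, 2350 and 4383.5 UMIs in the same order, so the cells near the threshold were also the shallower ones. Of the 1475 cells with at least 2 Gad UMIs, 175 were left out for Slc6a9. Among the GABAergic cells, 391 carried 1 gene of the second set, mostly Crabp1 (21.6% of cells) and Nhlh2 (13.3%), and 30 carried 1 starburst gene.

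The cells were not of 1 kind. A cell was counted for a marker when it held at least 2 UMIs of it, as a description over all mice. C1ql1 and C1ql2, secreted relatives of complement C1q that act at synapses, marked 412 and 382 cells, and Meis2, a transcription factor, marked 448. Peptides marked smaller sets. Cartpt, which encodes the CART peptide, marked 97 cells, Npy (neuropeptide Y) 66, Tac1 (substance P and neurokinin A) 64 and Vip (vasoactive intestinal peptide) 26. Each of Cartpt, Npy and Tac1 was present in all 11 mice. Of the 26 Vip cells, 16 (61.5%) also held Cartpt, while 16 of the 97 Cartpt cells (16.5%) held Vip. In the Cartpt cells C1ql1 was found in 79.4% and C1ql2 in 74.2%, but Npy in only 2 cells, Maf in 1 and Tfap2c in 1. Npy and Tac1 shared 16 cells, which were 24.2% of the Npy cells and 25.0% of the Tac1 cells. Maf and Tfap2c, both transcription factors, shared 20 cells, 21.5% of 93 Maf cells and 29.0% of 69 Tfap2c cells. Sst and Nts, which encode somatostatin and neurotensin, were in 0 of 1011 cells, which allows a share of up to 0.297% of cells with a UMI at this depth.

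The share of GABAergic cells overlapped between groups in some measures and not in others, and no difference passed the test. Of all cells, 5.34% ± 1.29 (SD, n = 3) were GABAergic in Phase I ROP and 7.69% ± 1.79 (SD, n = 3) in control, and exact permutation of the mice (two-sided) gave p = 0.2. The rule needs Gad UMIs, and GABAergic cells of control mice were deeper (median 3664.5 to 5470 UMIs) than those of Phase I ROP mice (2834 to 3141 UMIs). Cells with fewer than 800 UMIs were then left out, and each remaining cell was thinned to 800 UMIs. The order turned, with 4.53% ± 1.15 in Phase I ROP and 3.48% ± 0.787 in control (exact p = 0.3). Cells left out numbered 594, 377 and 780 in the Phase I ROP mice and 91, 92 and 279 in the control mice. Of GABAergic cells, 7, 5 and 3 were left out in Phase I ROP and 1, 2 and 2 in control. The part of this loss in the turn was not tested. As a share of GABAergic plus glycinergic cells, the values were 75.3% ± 6.55 and 83.4% ± 4.19 (exact p = 0.2), and 79.3% ± 7.10 and 93.4% ± 6.92 after thinning (exact p = 0.2). The thinned shares rested on 19, 15 and 11 glycinergic cells in the Phase I ROP mice and only 0, 4 and 2 in the control mice. On the ω-6 diet 4.51% ± 0.810 (SD, n = 3) of cells were GABAergic and on the ω-3 diet 4.16% ± 0.573 (SD, n = 2), with exact p = 0.8. Of GABAergic plus glycinergic cells the diets gave 59.5% ± 8.95 and 71.1% ± 3.59 (exact p = 0.2), a range of 49.6% to 66.9% against 68.6% to 73.6%. After thinning the diets did not overlap either, with 72.7% to 81.6% for ω-6 against 86.1% to 88.1% for ω-3 (exact p = 0.2, the smallest possible). These rested on 18, 15 and 9 glycinergic cells in the ω-6 mice and 7 and 10 in the ω-3 mice. Groups of 3 and 3 mice cannot reach an exact p below 0.1, nor groups of 3 and 2 one below 0.2.

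**Figure D2:**
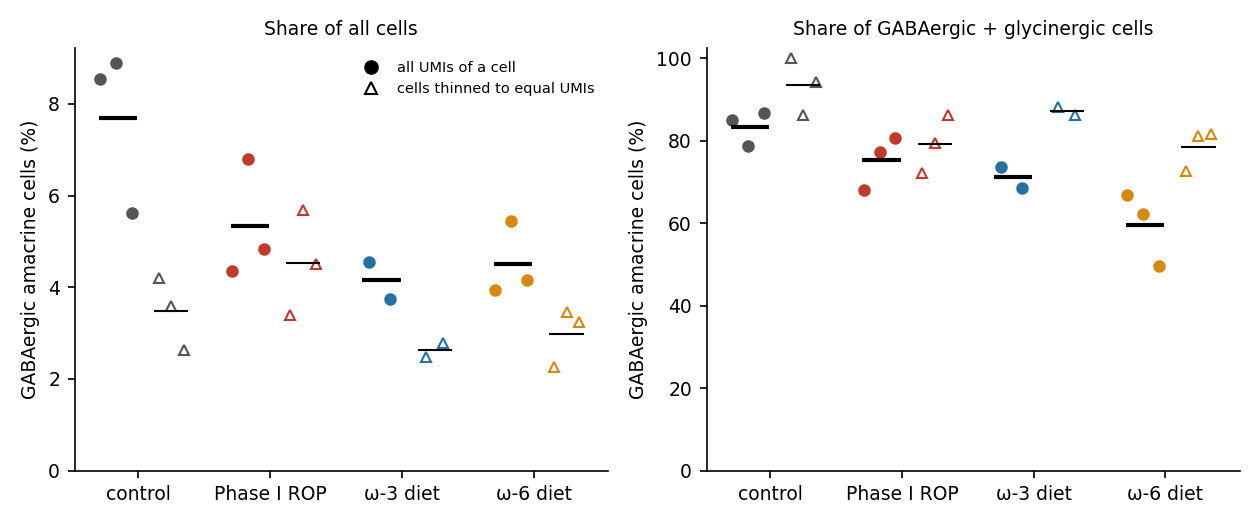
GABAergic amacrine cells as a percent of all cells (left) and of GABAergic plus glycinergic cells (right), 1 point per mouse, with lines at the group means. Filled circles use all UMIs and open triangles cells thinned to 800 UMIs, with shallower cells left out. For the triangles the mean share of all cells is 4.53% in Phase I ROP and 3.48% in control, the reverse of the order without thinning.

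The makeup of the GABAergic cells was compared by the share with a UMI of each of 16 subtype markers after thinning. In Phase I ROP, Tfap2c was found in 3.87 percentage points more cells and Calb1, a calcium-binding protein that was also in 1.91% of thinned rods, in 2.68 points fewer, and the mice of the 2 groups did not overlap for either or for Car2. Each had an exact p of 0.1, the smallest possible, and an adjusted p of 0.436. No marker of the 16 passed the test in either comparison, nor did any have an unadjusted p below 0.05, which the design does not allow. Car2, an enzyme also abundant in other retinal cells, was in 12.1% of thinned GABAergic cells and 15.9% of thinned rods, so its share is at the background. Cartpt was found in 8.82% to 10.3% of thinned GABAergic cells of control mice and 4.88% to 8.89% of Phase I ROP mice, which overlapped.

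To see how Phase I ROP changed with control as the reference, edgeR's quasi-likelihood test was run on the sums per mouse, and its p-values were adjusted over 6963 genes by Benjamini-Hochberg. At an adjusted p under 0.05, 1947 genes (28.0%) were called, 898 higher (12.9%) and 1049 lower (15.1%) in Phase I ROP. The median log2 fold change of all tested genes was 0.03. DESeq2 called 1213 of these 6963 genes, and without replicate 2 of Phase I ROP edgeR called 1239. Most tested immediate early genes rose and most nuclear subunits of oxidative phosphorylation fell, while other lists moved in part, as their counts show.

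Immediate early genes, which neurons switch on within minutes of a stimulus without new protein synthesis, stood highest. Of 45 listed genes, 23 passed the filter on low counts, 20 of these rose, 0 fell, and the mice of the 2 groups did not overlap for any of the 20. Over all genes, 2959 of 6963 did not overlap, as did 1849 of the 1947 called genes, so this count adds little to the calls. Their median log2 fold change was 2.56, against 0.03 over all genes. Fos, a component of the AP-1 transcription factor, was at 54.1, 34.3 and 80.6 CPM in the control mice and at 656, 887 and 1301 CPM in the Phase I ROP mice. Every Phase I ROP mouse was thus far above every control, with a log2 fold change of 4.11 ± 0.28 (SE, adjusted p = 3.50e-08). Nr4a1, an orphan nuclear receptor, was at 2.86 to 5.97 CPM in control and 201, 245 and 409 CPM in Phase I ROP (log2 fold change 5.85 ± 0.42, adjusted p = 6.99e-08). Egr4, a zinc finger factor, had 0 UMIs in the control mice and 150 in the Phase I ROP mice (86.0, 88.7 and 223 CPM), at least 58.5-fold higher when the control group is set to 3 UMIs. Npas4, a transcription factor of neurons that answers calcium entry, had 1 UMI in control and 87 in Phase I ROP, a ratio of levels of 102 with a 95% counting interval from 17.8 to 4068. Fosb had 1 and 97 UMIs, a ratio of 114 (19.9 to 4531), and Nr4a3 had 3 and 70, a ratio of 27.3 (8.97 to 136). These intervals cover counting error only. Egr1 (log2 fold change 3.26 ± 0.43), Dusp1 (3.34 ± 0.30), Btg2 (3.88 ± 0.63), Jun (2.69 ± 0.41) and Junb (1.50 ± 0.28) also rose, and were named after their values were seen. Dusp6, Sik1 and Gadd45g did not pass the test, at 1.74, −0.49 and 0.47.

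The 250 bases before and 50 after the start of the gene are shown for the 6 immediate early genes with the largest log2 fold changes, since cAMP response elements in such promoters bind CREB, a factor that carries calcium and cAMP signals to these genes. Sequences are from RefSeq on GRCm38.p6, 5′ to 3′ along the strand of the gene, with TGACG and its reverse complement CGTCA in capitals. The windows are chr12:85473640-85473939 on the plus strand for Fos, chr6:85513540-85513839 on the minus strand for Egr4, chr7:19309996-19310295 on the minus strand for Fosb, chr4:48045055-48045354 on the plus strand for Nr4a3, chr19:4989922-4990221 on the minus strand for Npas4 and chr15:101266596-101266895 on the plus strand for Nr4a1.
Fos: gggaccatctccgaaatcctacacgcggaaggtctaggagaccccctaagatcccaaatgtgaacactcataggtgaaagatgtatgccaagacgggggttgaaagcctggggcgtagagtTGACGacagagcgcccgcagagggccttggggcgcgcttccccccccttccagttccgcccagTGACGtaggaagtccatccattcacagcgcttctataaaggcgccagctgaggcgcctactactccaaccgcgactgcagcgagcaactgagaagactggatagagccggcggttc
Egr4: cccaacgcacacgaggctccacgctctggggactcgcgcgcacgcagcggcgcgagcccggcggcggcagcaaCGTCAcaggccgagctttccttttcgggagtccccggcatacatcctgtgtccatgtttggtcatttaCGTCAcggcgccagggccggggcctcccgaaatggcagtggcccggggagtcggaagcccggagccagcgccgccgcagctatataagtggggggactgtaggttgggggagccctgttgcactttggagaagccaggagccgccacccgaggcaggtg
Npas4: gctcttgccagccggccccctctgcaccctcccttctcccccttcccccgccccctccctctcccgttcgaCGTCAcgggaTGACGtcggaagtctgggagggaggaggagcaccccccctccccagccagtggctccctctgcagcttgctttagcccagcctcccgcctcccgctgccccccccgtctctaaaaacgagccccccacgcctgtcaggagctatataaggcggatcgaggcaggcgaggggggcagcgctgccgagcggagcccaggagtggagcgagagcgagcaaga
Nr4a1: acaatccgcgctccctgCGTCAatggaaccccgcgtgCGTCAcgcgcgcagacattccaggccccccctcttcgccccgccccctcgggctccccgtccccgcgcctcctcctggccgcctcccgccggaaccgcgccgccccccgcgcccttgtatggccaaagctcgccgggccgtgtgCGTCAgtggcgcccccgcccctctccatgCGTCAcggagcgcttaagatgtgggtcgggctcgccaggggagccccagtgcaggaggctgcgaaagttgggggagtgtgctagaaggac
Fosb: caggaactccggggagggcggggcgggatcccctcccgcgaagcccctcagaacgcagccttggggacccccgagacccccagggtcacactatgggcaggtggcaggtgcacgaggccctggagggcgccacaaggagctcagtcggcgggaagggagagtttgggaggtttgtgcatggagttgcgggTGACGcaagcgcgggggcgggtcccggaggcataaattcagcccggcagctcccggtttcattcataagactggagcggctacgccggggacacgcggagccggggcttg
Nr4a3: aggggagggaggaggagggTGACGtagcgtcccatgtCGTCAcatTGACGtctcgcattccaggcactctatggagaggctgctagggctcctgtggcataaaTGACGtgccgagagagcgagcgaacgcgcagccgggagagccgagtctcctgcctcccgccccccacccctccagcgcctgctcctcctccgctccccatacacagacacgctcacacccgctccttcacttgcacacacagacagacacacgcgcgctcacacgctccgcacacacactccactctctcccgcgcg
Fos, Egr4 and Npas4 each held 2 such matches, Nr4a1 and Nr4a3 held 4 and Fosb held 1. In Fos the matches nearest and farthest from the start began at −66 and −129, counted from −1 at the last base before the start. A promoter entry was found for 19 of the 20 immediate early genes that rose, all but Egr1. TGACG or CGTCA was in 11 of the 19 windows (57.9%), in 35.2% of the 4928 windows of tested genes with an entry and in 21.0% of all 27025 windows. The longer element, TGACG followed directly by TCA, which overlaps the shorter matches, was in 2 of 19 (Btg2 and Dusp1), in 3.92% of the windows of tested genes and in 1.88% of all windows. A CArG box, the serum response element core, was in 0 of 19, in 1.18% of the windows of tested genes and in 1.57% of all windows. At such shares 0 of 19 says little, and bases more than 250 before the start were not searched. These matches describe letters and were not tested for use.

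Immediate early genes were also compared at equal depth and in other cell types. After thinning to 800 UMIs per cell, Fos was found in 1.28% to 4.88% of GABAergic cells of the control mice and in 35.6% to 41.3% of those of the Phase I ROP mice. In the mice on the diets, which also received STZ, Fos was found in 39.6% and 48.9% of the cells on the ω-3 diet and in 37.3% to 58.2% on the ω-6 diet. In rods the shares were 0% to 2.72% in control and 6.91% to 12.6% in Phase I ROP, and in glycinergic cells 0% and 25.9% to 30.8%. Egr4 was in 6.67% to 11.9% of thinned GABAergic cells of Phase I ROP mice and in 0.138% to 0.216% of rods. Jun was in a smaller share of GABAergic cells (7.78% to 13.4%) than of rods (19.4% to 21.6%) in Phase I ROP mice. Differences between the cell types in these shares were not tested. Without GABAergic cells that held UMIs of 3 or more rod genes, which left 649 cells, 14 of 16 immediate early genes tested rose. These are the cells with rod RNA that are left out below, and cells with fewer rod genes stayed in.

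**Figure D3:**
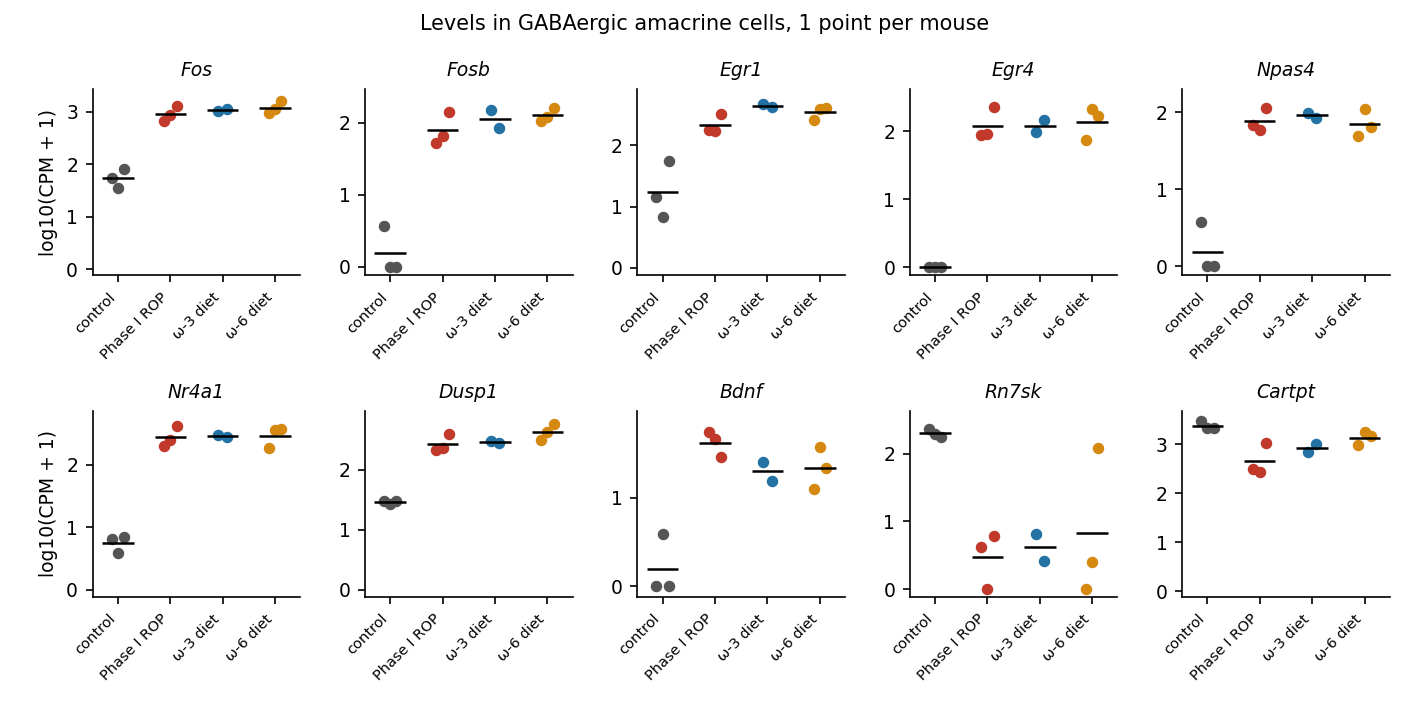
Levels of 10 genes in GABAergic amacrine cells as log10 of CPM plus 1 (vertical axes, scaled for each gene), 1 point per mouse with lines at the group means of the logs. For Fos to Bdnf the 3 control mice lie below all 8 mice given STZ, and for Rn7sk they lie above them, with 1 ω-6 mouse at 120 CPM.

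Later activity-regulated genes, which follow the immediate early wave, rose in part. Of 14 tested, 8 rose and 0 fell (median 0.96). Bdnf, a neurotrophin, had 1 UMI in control and 45 in Phase I ROP, a ratio of 52.7 (8.98 to 2126, counting error only). Plk2, a kinase that weakens synapses after activity, was at 14.9 to 54.3 CPM in control and 156 to 216 CPM in Phase I ROP (log2 fold change 2.32 ± 0.32, adjusted p = 5.85e-05). The count of 8 fell to 3 with DESeq2 or without Phase I ROP replicate 2, and to 4 without control replicate 2, without Phase I ROP replicate 3 or without the cells with rod RNA.

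Genes of GABA transport rose moderately. Of 8 tested, 4 rose and 0 fell (median 0.56), and Gad1 and Gad2 themselves were not tested because they chose the cells. Slc32a1, the vesicular transporter, moved from 203 to 283 CPM to 360 to 379 CPM (log2 fold change 0.72 ± 0.17, adjusted p = 0.00501, named after its values were seen). Slc12a5, the KCC2 chloride exporter that makes GABA inhibitory in mature neurons, moved from 233 to 394 CPM to 481 to 738 CPM (0.89 ± 0.20, adjusted p = 0.00291). Slc38a1, a glutamine transporter, rose by 0.84 ± 0.23, a call lost without Phase I ROP replicate 3. Among 12 tested subunits of GABA and glycine receptors, 0 rose and 1 fell, Gabra2 (198 to 261 CPM against 368 to 395 CPM, log2 fold change −0.74 ± 0.17, adjusted p = 0.00347). Over all genes 12.9% rose and 15.1% fell, so with 12 genes these counts say little about the receptors as a list.

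Of 25 tested transcription factors of amacrine and retinal neuron fate, 13 rose and 0 fell (median 0.67). Sox4, active in young neurons, was at 60.0 to 146 CPM in control and 416 to 653 CPM in Phase I ROP (log2 fold change 2.35 ± 0.25, adjusted p = 3.42e-06). Neurod1, a neurogenic factor that rods also express, rose by 1.79 ± 0.34 and Barhl2, a homeobox factor of amacrine cells, by 1.76 ± 0.47 (adjusted p = 9.43e-04 and 0.00950). Pax6 (0.23, adjusted p = 0.323) and Tfap2a (0.59, adjusted p = 0.0510) did not pass the test. The 13 calls became 9 with DESeq2 and 8 without Phase I ROP replicate 3, and without the cells with rod RNA 11 of 23 rose.

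Synaptic genes moved unevenly. Of 36 tested adhesion molecules of synapses, 15 rose and 1 fell (median 0.70). Dscam, which spaces cells and neurites of the same type, was at 40.6 to 65.7 CPM in control and 175 to 219 CPM in Phase I ROP (log2 fold change 1.88 ± 0.26, adjusted p = 4.46e-05). Pcdh17, a protocadherin, rose by 1.32 ± 0.18 (adjusted p = 3.76e-05). Cbln4, a secreted synaptic organizer, rose by 2.35 ± 0.46, although 1 Phase I ROP mouse (52.6 CPM) was close to the highest control (50.8 CPM). C1ql1 fell by 0.51 ± 0.18 on the log2 scale with overlapping mice, a call that 8 of the alternatives lost, DESeq2 among them. The 15 calls became 9 with DESeq2, 8 without control replicate 1, 10 without Phase I ROP replicate 1 and 9 without Phase I ROP replicate 3 or without the cells with rod RNA. Of 19 glutamate receptor subunits and partners, 8 rose and 0 fell (median 0.69), among them Cacng2, the AMPA receptor partner stargazin (1.89 ± 0.33, adjusted p = 5.00e-04) and the NMDA subunit Grin2b (1.25 ± 0.33), the last lost without Phase I ROP replicate 3.

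Of 36 tested genes of vesicle release, 11 rose and 5 fell (median 0.19). Over all genes 12.9% rose and 15.1% fell, so the decreases of this list were near the share over all genes. Sv2a, a vesicle glycoprotein, was at 328 to 433 CPM in control and 933 to 1124 CPM in Phase I ROP (log2 fold change 1.46 ± 0.15, adjusted p = 3.42e-06), and Bsn, the active zone scaffold bassoon, rose by 1.77 ± 0.31. Cplx3, a complexin of retinal synapses, fell by 1.05 ± 0.17 on the log2 scale (206 to 248 CPM against 437 to 571 CPM, adjusted p = 2.07e-04). The 11 calls became 7 with DESeq2 and without control replicate 1, control replicate 2, Phase I ROP replicate 2 or Phase I ROP replicate 3. The 5 decreases became 2 with DESeq2 and without control replicate 1 or Phase I ROP replicate 2, and 3 without control replicate 3. Of 28 voltage-gated channel genes 8 rose and 0 fell (median 0.57), among them the sodium channel Scn3a (1.41 ± 0.30), and 4 rose without Phase I ROP replicate 2. Of 29 guidance and growth cone genes 5 rose, led by the netrin receptor Unc5d (1.75 ± 0.35), and 3 fell (median 0.32). Both counts were near the shares over all genes, so they say little about this list as a whole. The 3 that fell were Tubb3 (−0.85 ± 0.17), Gap43 (−0.79 ± 0.18) and Stmn1 (−0.69 ± 0.15), genes of microtubules and growing axons. The 5 increases became 2 with DESeq2, 1 without control replicate 1, 2 without control replicate 2 or Phase I ROP replicate 2, and 3 without Phase I ROP replicate 1 or Phase I ROP replicate 3. The calls of Tubb3, Gap43 and Stmn1 held in each of these alternatives.

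Neuropeptides did not move together, with 1 of 8 tested higher and 1 lower, near the shares over all genes (12.9% and 15.1%). Cartpt was at 3045, 2134 and 2171 CPM in control and 309, 276 and 1050 CPM in Phase I ROP. All Phase I ROP mice were below all controls, with a log2 fold change of −2.12 ± 0.34 (adjusted p = 1.92e-04), and the call held in every alternative. Cells with at least 2 UMIs of Cartpt were 25 of 233 in control and 22 of 296 in Phase I ROP. Within those cells Cartpt made up 23463, 19974 and 13430 CPM in the control mice, and 5458, 3367 and 14734 CPM in the Phase I ROP mice, 1 of which was within the range of the controls. These levels rest on 5 to 10 cells per mouse and were not tested. Vgf, a granin-like peptide precursor, rose by 1.49 ± 0.51 with overlapping mice and not with DESeq2. Npy (−0.78 ± 0.36, adjusted p = 0.111) and Tac1 (−0.94 ± 0.40, adjusted p = 0.0872) did not pass the test.

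Genes of oxidative phosphorylation were lower in Phase I ROP, and those of glycolysis in part. Of 76 nuclear subunits of oxidative phosphorylation, all were tested, 66 fell and 0 rose (median −1.16). Ndufc2, of complex I, was at 550, 563 and 597 CPM in control and 131, 188 and 153 CPM in Phase I ROP (log2 fold change −1.81 ± 0.17, adjusted p = 1.98e-06), and Ndufb7 and Ndufs8 changed by −1.89 ± 0.24 and −1.90 ± 0.37. All 13 genes encoded by mitochondria fell (median −1.11). For mt-Cytb, of complex III, Phase I ROP replicate 1 (6215 CPM) was nearer the controls (9696 to 10446 CPM) than the other Phase I ROP mice (2055 and 3078 CPM), and the adjusted p was 0.00168. The counts were 58 of 76 and 9 of 13 with DESeq2, and 57 of 76 and 8 of 13 without the cells with rod RNA. Of 17 genes of glucose uptake and glycolysis 6 fell and 1 rose (median −0.22), and called or not, 12 were lower and 5 higher. Among those that fell were Eno1 (−1.03 ± 0.15), Ldha (−0.99 ± 0.15) and Pgk1 (−0.88 ± 0.16).

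Of 23 genes of sterol synthesis and its regulation, 11 rose and 1 fell (median 0.63). Stard4, a sterol carrier, was at 8.12 to 14.9 CPM in control and 38.2 to 55.1 CPM in Phase I ROP (log2 fold change 2.09 ± 0.48, adjusted p = 0.00374), Sc5d rose by 1.65 ± 0.37, and Fdps fell by 1.38 ± 0.29 on the log2 scale. Of 20 tested genes of insulin and IGF signalling, 7 rose and 0 fell (median 0.67). Irs2, an adaptor of the insulin receptor, was at 8.12 to 29.9 CPM in control and 62.6 to 90.2 CPM in Phase I ROP (2.34 ± 0.46, adjusted p = 0.00135). Igf1r, the IGF-1 receptor, was at 32.5, 85.7 and 44.8 CPM in control and 92.4, 117 and 208 CPM in Phase I ROP (1.41 ± 0.36, adjusted p = 0.00677), a call lost without Phase I ROP replicate 3, and Insr (1.47 ± 0.49) was lost with DESeq2 and without any of the control mice or Phase I ROP replicate 2. The 7 calls became 4 with DESeq2 and 3 without control replicate 1, and 4 without control replicate 2 or Phase I ROP replicate 2. Igf1 itself had 52 UMIs in all GABAergic cells and was not tested. Of the adiponectin receptors, Adipor2 rose by 1.52 ± 0.43 (adjusted p = 0.0143, not with DESeq2), and Adipor1 (0.19 ± 0.30, adjusted p = 0.664) and Vegfa (0.97 ± 0.40, adjusted p = 0.0772) did not pass the test. Of 23 tested genes of fatty acid handling 4 rose and 3 fell (median 0.19), near the shares over all genes (12.9% and 15.1%). The increases became 2 with DESeq2 and without Phase I ROP replicate 1 or Phase I ROP replicate 2. Of 18 chaperones and stress genes 5 rose, Atf4 among them (1.56 ± 0.19), and 4 fell, Hspa8 among them (−0.92 ± 0.15), with 3 increases under DESeq2 and 2 without Phase I ROP replicate 1.

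Among the largest decreases of single genes were Rn7sk, a small nuclear RNA that restrains transcription elongation, with 214 UMIs in control and 3 in Phase I ROP (a ratio of 60.9, counting interval 20.6 to 298), and Cpne9, which fell by 3.51 ± 0.44 on the log2 scale. The others were T2 and the predicted genes Gm37357, Gm26737, Gm10123, Gm3756 and Gm6061 (−3.05 to −3.88), whose reads may be shared with similar copies elsewhere in the genome. The mitochondrial ribosomal RNAs mt-Rnr2 (34993 to 41563 CPM against 3836 to 8973 CPM) and mt-Rnr1 fell by 2.69 ± 0.29 and 2.78 ± 0.28 on the log2 scale. Rod genes rose in these cells. Of 9 tested rod markers 5 rose and 1 fell, Pdc from 5.71 to 27.1 CPM to 96.5 to 218 CPM (log2 fold change 2.88 ± 0.43), and the summed level of 14 rod markers was 823 to 928 CPM in control and 1546 to 2103 CPM in Phase I ROP. The part of this rod RNA in the other results was not tested beyond 1 alternative. Without cells with UMIs of 3 or more rod genes, 1167 of 5371 genes were called.

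**Figure D4:**
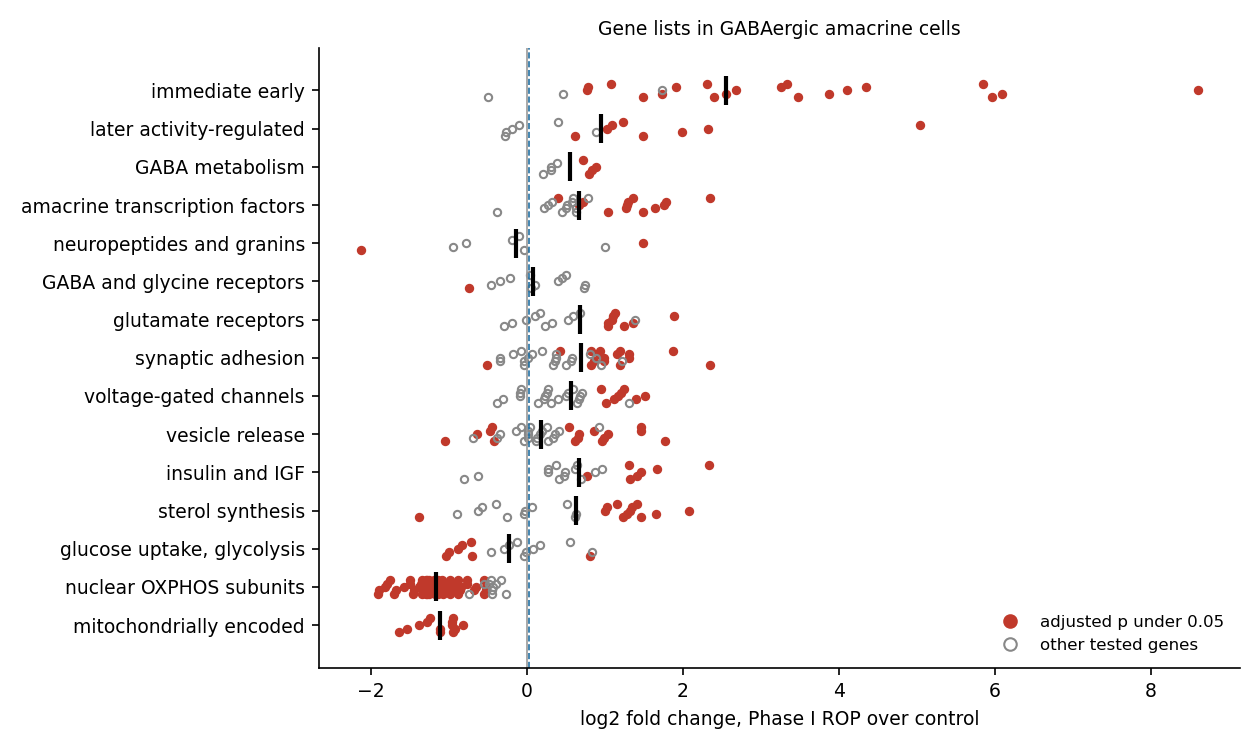
Log2 fold change of Phase I ROP over control (horizontal axis) for the tested genes of 15 lists, 1 point per gene, filled where the adjusted p is under 0.05. Black bars are list medians, from 2.56 for immediate early genes to −1.16 for nuclear subunits of oxidative phosphorylation, and the dashed line is the median of all genes, 0.03.

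Between the diets, no gene passed the same test. edgeR's quasi-likelihood test called 0 of 9240 genes (0% called), 739 had an unadjusted p under 0.05, and DESeq2 called 11. The mice of the diets did not overlap for 2311 genes (25.0%). Malat1, Wipi1, mt-Rnr2 and Apoe were among the 5 genes with the smallest p. Malat1, a nuclear noncoding RNA, was at 861 and 1029 CPM on the ω-3 diet and 502, 339 and 462 CPM on the ω-6 diet (log2 difference, ω-6 minus ω-3, −1.12 ± 0.18, adjusted p = 0.0586). Apoe, a lipoprotein of Müller glia (−2.76 ± 0.49), had an adjusted p of 0.0659. RNA of other cell types moved with the diets, since 14 of 14 rod markers and 7 of 8 tested Müller markers were lower on the ω-6 diet, and their sums were 1595 to 2724 CPM against 3251 and 4668 CPM for rods and 738 to 795 CPM against 1039 and 1604 CPM for Müller glia. The part of this RNA in the differences was not tested.

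Of the genes that the study followed, Sparc, a matrix glycoprotein, was at 113 and 64.3 CPM on the ω-3 diet and 27.4, 0 and 16.2 CPM on the ω-6 diet (−2.74 ± 0.61, adjusted p = 0.175). Igf1r (−0.32 ± 0.28), Vegfa (−0.32 ± 0.29), Adipor1 (−0.24 ± 0.24) and Adipor2 (0.11 ± 0.40) had adjusted p-values of 0.808 to 0.962. Nuclear subunits of oxidative phosphorylation were higher on the ω-6 diet in 72 of 76 genes, with a median of only 0.23 against 0.01 over all genes, and 0 were called. Peptides and granins, named after their values were seen, were higher in 7 of 8 genes (median 0.74). Tac1 was at 94.7 and 93.3 CPM on the ω-3 diet and 103, 176 and 294 CPM on the ω-6 diet (1.02 ± 0.34), and Chgb at 288 and 249 CPM and at 427, 429 and 358 CPM (0.60 ± 0.18). Cartpt (0.71 ± 0.22) and Npy (1.48 ± 0.68) overlapped between the diets. The adjusted p-values of the 7 genes were 0.374 to 0.623, and without the cells with rod RNA Npy turned to −0.27. For immediate early genes the median was 0.0010, with 18 of 35 higher.

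Next to the glycinergic cells of the same 11 mice, the GABAergic cells differed in 1594 of 6231 genes (25.6%), of which 862 were higher in GABAergic cells (13.8%) and 732 lower (11.7%), with the mouse as a block. Median log2 difference over all genes was −0.03. The genes of the rule were left out of the calls. With 10 or more cells of both types in a mouse, the glycinergic sums rested on 13 to 72 cells. Without cells with UMIs of 3 or more rod genes in either type, an alternative chosen after seeing the data, 623 of 2929 genes were called, and with the sums of a mouse thinned to the smaller of the pair 778 of 2336.

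Synaptic organizers and peptides led the genes higher in GABAergic cells. C1ql2 had 2130 UMIs in GABAergic cells and 0 in glycinergic cells, at least 246-fold higher when the glycinergic cells are set to 3 UMIs over all mice. Cbln2, a cerebellin that bridges synapses, was at 431 ± 81.5 CPM (SD, n = 11) in GABAergic cells and 3 UMIs in glycinergic cells, a ratio of 208 (71.1 to 1010, counting error only). Cbln1 had 478 UMIs and 1 UMI, and Npy 990 and 3, ratios of 166 (29.6 to 6553) and 114 (39.0 to 555). The label markers Cartpt (1523 ± 925 against 5.20 ± 9.86 CPM) and C1ql1 (851 ± 185 against 8.27 ± 14.8 CPM) were higher in 11 of 11 mice and are given without a test. Cxcl14, a chemokine (log2 difference 6.38 ± 0.34), and Filip1l followed. Of 31 adhesion molecules 24 were higher and 2 lower, of 26 guidance and growth cone genes 18 higher and 3 lower, and of 7 tested peptides and granins 7 higher. C1ql1 is counted in the first of these lists and Cartpt in the last. Dcx (4.80 ± 0.37) and Stmn2 (3.60 ± 0.29), both proteins of growing neurites, were higher in 11 of 11 mice, as was Sema6a, a guidance ligand (3.77 ± 0.31).

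**Figure D5:**
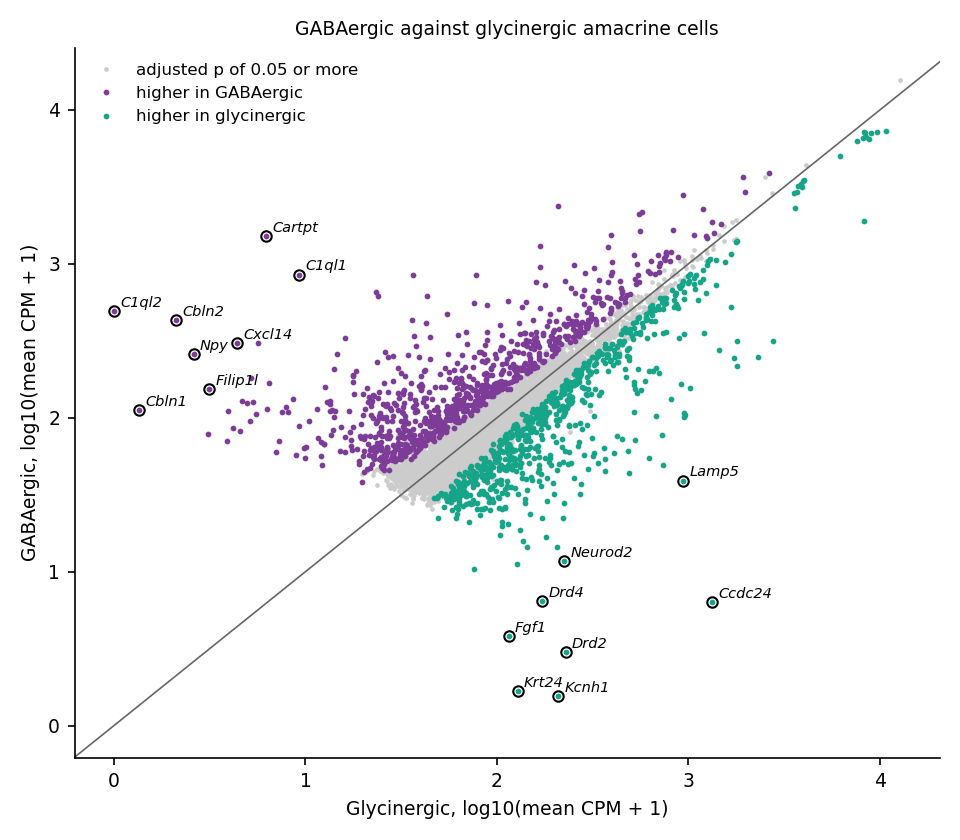
Mean CPM of each tested gene over 11 mice in glycinergic (horizontal) and GABAergic (vertical) amacrine cells, both as log10 of CPM plus 1, with a line of equal levels. C1ql2, at 0 in glycinergic cells, and Cartpt lie farthest to the upper left, and Kcnh1 and Ccdc24 are among those lowest on the right.

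GABA handling and release differed too. Slc6a11, a GABA transporter, was higher in GABAergic cells by 3.01 ± 0.41 (log2 difference) and Abat, which breaks GABA down, by 2.30 ± 0.33, while Slc12a2, the chloride importer NKCC1, was lower by 2.21 ± 0.37 on the log2 scale. Slc12a5, the chloride exporter, was higher by 0.96 ± 0.15 in 10 of 11 mice, and was named after its values were seen. Syt7, a slow calcium sensor of release, was at 614 ± 193 CPM in GABAergic cells and had 34 UMIs in all glycinergic cells (log2 difference 4.74 ± 0.26), and Kcnip1, a potassium channel subunit, at 307 ± 61.0 CPM against 4.68 ± 7.15 CPM (5.58 ± 0.28). Cplx3 was at 315 ± 150 CPM against 1786 ± 950 CPM (−2.46 ± 0.12) and Sv2b was lower by 2.96 ± 0.24. Of 13 GABA and glycine receptor subunits 8 were higher in GABAergic cells, Glra2 of the glycine receptor among them, and 1 was lower. Among fate factors Lhx9 (4.31 ± 0.45), Meis2 (3.62 ± 0.24) and Zfhx3 (3.56 ± 0.22) were higher, and Neurod2 (−4.39 ± 0.24), Prox1 (−3.89 ± 0.20) and Neurod4 (−3.45 ± 0.33) lower, within 11 higher and 7 lower of 25.

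Genes lowest in the GABAergic cells included dopamine receptors. Drd2 was at 1.99 ± 2.84 CPM against 228 ± 79.0 CPM in glycinergic cells (log2 difference −6.26 ± 0.36) and Drd4 at 5.46 ± 7.74 CPM against 171 ± 80.1 CPM (−4.71 ± 0.42). Ccdc24 (−7.75 ± 0.18), Fgf1, a growth factor (−5.04 ± 0.37), and Lamp5 (−4.63 ± 0.22) were also lower in 11 of 11 mice, and Kcnh1, a potassium channel, had 2 UMIs in GABAergic and 281 in glycinergic cells, a ratio of 406 (111 to 3366). Of 76 nuclear subunits of oxidative phosphorylation 40 were lower in GABAergic cells and 0 higher (median −0.41), as were 11 of 13 mitochondrially encoded genes (median −0.33). All 12 tested rod markers were lower too (median −2.69), so over all mice the glycinergic sums carried more rod RNA. In control mice summed rod markers were alike, at 836 to 948 CPM in glycinergic and 823 to 928 CPM in GABAergic cells. In each STZ mouse they were higher in glycinergic cells (3189 to 27300 CPM against 1546 to 4668 CPM). The part of rod RNA in the other differences was not tested beyond the values without cells with UMIs of 3 or more rod genes. Of 16 sterol genes 9 were higher in GABAergic cells and 0 lower. Of 20 genes of fatty acid handling 6 were higher and 7 lower (median −0.28), with Agpat3 lower by 1.39 on the log2 scale and Lpl, lipoprotein lipase, at 558 ± 117 CPM against 74.7 ± 84.1 CPM (3.25 ± 0.24, adjusted p = 1.04e-11).

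Whether Phase I ROP changed GABAergic cells otherwise than glycinergic cells was tested as an interaction with the mouse as a block. Of 5964 genes 7 were called (0.117%), 386 had an unadjusted p under 0.05, and DESeq2 called 1. Without Phase I ROP replicate 3 the count was 1, without Phase I ROP replicate 2 it was 12 and without control replicate 3 it was 15. Tubb2b, a tubulin of young neurons, changed by −0.29 in GABAergic and −1.71 in glycinergic cells (difference 1.42 ± 0.32, adjusted p = 0.0391). The others were Pde6g of rods, mitochondrial RNAs and transcripts of ribosomal repeats. TMM gave a median difference of −0.19, and scaling by medians of ratios one of −0.06. No immediate early gene of 22 tested was called, which says little where 0.117% of all genes were. Their median difference was −1.06 against −0.19 over all genes, with 16 lower and 6 higher. At an unadjusted p under 0.05 in edgeR, 3 of them were lower and 0 higher. For the diets, edgeR called 0 of 9923 genes (0%), with 518 at an unadjusted p under 0.05, and DESeq2 called 0, with 137.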

How the data were processed

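The deposited table held UMI counts per gene and cell from 11 retinas. The authors tagged RNA in inDrop droplets, sequenced on a NextSeq 500, processed reads with bcbio-nextgen and the umis tool, dropped shallow barcodes, mapped with Rapmap to mouse transcripts (GRCm38) and counted unique UMIs per gene. Cells were chosen by the rule above, with no doublet caller, and the members and gene lists were chosen with earlier results of these data known. Counts were summed per mouse and tested with edgeR 4.0.16 in R 4.3.3 (TMM, filterByExpr, quasi-likelihood test, adjusted p under 0.05). The 14 genes of the rule counted towards library sizes and were left out of the calls. Comparisons between cell types had the mouse as a block. Shares were compared with two-sided exact permutation tests over mice. The study describes the mice compared as littermates, and p-values measure the spread between these mice. Libraries held 2565568 to 6517776 UMIs, which limits genes of few UMIs.

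Genes were named by rule: label markers (levels only), the 8 largest changes in each direction among called genes of at least 50 CPM whose mice did not overlap (same direction in every mouse for cell types), up to 3 called genes in each direction of a list, the genes the study followed and, for interactions, up to 5 called in each direction. For the diets the 5 genes of smallest p were named. Where a group held 3 or fewer UMIs, a bound or a counting interval was given. Alternatives were all groups in 1 fit, DESeq2 1.42.0, no filter on low counts, scaling by medians of ratios, a replicate block, other cell limits, thinned sums and leaving out each mouse. Calls were tested on simulated data. Some genes that met these rules are not reported here.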

Additional observations from a re-analysis of the deposited data

Results flagged for a closer look

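In 7 genes the change from control to Phase I ROP differed between GABAergic and glycinergic cells in the edgeR interaction test (3 mice a group, changes on the log2 scale). The difference, GABAergic minus glycinergic, was 3.59 ± 0.59 for CT010467.1 (0.15 against −3.62, adjusted p = 4.69e-04), 3.14 ± 0.65 for Gm42418 (−0.15 against −3.43) and 1.42 ± 0.32 for Tubb2b (−0.29 against −1.71). It was −2.62 ± 0.50 for the rod gene Pde6g (0.33 against 3.01). Summed rod markers were alike in control mice, at 836 to 948 CPM in glycinergic and 823 to 928 CPM in GABAergic cells. In Phase I ROP mice they were at 3189 to 9123 CPM in glycinergic and 1546 to 2103 CPM in GABAergic cells. The part of this rod RNA in the differences was not tested. The difference was −1.13 ± 0.19 for mt-Rnr1 (−2.76 against −1.69), −0.76 ± 0.14 for mt-Rnr2 (−2.67 against −2.01) and −0.99 ± 0.19 for mt-Nd6 (−0.90 against 0.03). Without control replicate 2 none of these 7 genes was called, although 7 genes were called in that setting. DESeq2 called 1 gene, CT010467.1, and without Phase I ROP replicate 3 the count was 1. The glycinergic sums rested on 13 to 19 cells in a control mouse, and the part of these cell numbers was not tested.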

How the results depend on the processing

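Calls between Phase I ROP and control numbered 1947, against 1213 with DESeq2, 1167 without cells with UMIs of 3 or more rod genes and 1239 to 1940 when 1 mouse was left out, the lowest without Phase I ROP replicate 2. Between diets 0 calls became 11 with DESeq2, 81 without a filter, 2 with all 4 groups in 1 fit, 1 with 3 or more Gad UMIs, 1 without cells with rod RNA and 0 to 19 with 1 mouse left out, the highest without ω-3 replicate 2, where the lone ω-3 mouse is assumed to vary like the others. GABAergic against glycinergic cells gave 2657 calls without a filter (1865 higher, 792 lower, against 862 and 732) and 635 in control and Phase I ROP mice only. They gave 623 without cells with UMIs of 3 or more rod genes and 778 with sums thinned. The Phase I ROP interaction gave 20 calls without a filter, 1 with DESeq2 and 1 to 15 with 1 mouse left out, and the diet interaction 36 without a filter and 0 to 17. The Phase I ROP share of all cells turned from −2.35 to 1.05 points after thinning (−3.38 to −1.75 with 1 mouse left out), and the diet share from 0.359 to −0.138 with 1 or more Gad UMIs (−0.103 to 0.765). Shares of GABAergic plus glycinergic cells ranged from −10.8 to −4.49 points for Phase I ROP and −15.3 to −6.62 for the diets. Adipor1 turned to −0.0308 without control replicate 1 (−0.0308 to 0.332 with 1 mouse left out), and C1ql2 to −0.0254 without control replicate 3 (−0.0254 to 0.0947). Between diets, Npy turned to −0.27 without cells with UMIs of 3 or more rod genes. Adipor2 turned to −0.17 without ω-3 replicate 1 and −0.13 without ω-6 replicate 2 (up to 0.50). Between cell types Hsp90b1 turned to 0.10 in control and Phase I ROP mice only and Vegfa to 0.0273 in diet mice only. The causes were not tested. Of the named genes, 1365 values for Phase I ROP kept direction and side of the threshold and 143 lost the call.

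With the replicate number as a block, Phase I ROP gave 1799 calls and the diets 17. Deviations from the group means were correlated between mice. Same-numbered mice of control and Phase I ROP had correlations of 0.0035 to 0.052, and those of the diets 0.062 and 0.167. The deviations of 2 ω-3 mice mirror each other, so each diet value recurs with the opposite sign. These values cannot decide whether same-numbered mice shared a litter or a batch.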
